A study of Mus musculus with 16 samples.

Results

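Genes for scavenger receptors of modified lipoprotein and for related proteins were described here in RAW264.7 cells. These are an established mouse macrophage line derived from a virus-induced tumour. Whether each gene's product binds such lipoprotein was not tested. The 10 genes were chosen by their symbols among the 21965 genes of the deposited table: Msr1, Marco, Cd36, Scarb1, Scarb2, Cd68, Olr1, Cxcl16, Stab1 and Lrp1. All 10 had a row, and 6 of them were measured well enough to compare the groups. RNA was sequenced from 16 libraries in 4 groups of 4: cells given culture medium as vehicle, oxLDL (low-density lipoprotein that has been oxidised), tirzepatide, or both. The labels give the doses as 50 µg/ml of oxLDL and 100 nmol/ml of tirzepatide. Whether the latter unit stands for nmol per litre could not be settled from the files. Tirzepatide is a peptide agonist of the incretin receptors, those for GIP and GLP-1. All cells grew in high-glucose medium with serum, carry no genetic change that the labels name, and belong to a single line; the duration of treatment is not given in the sources used here. Because the labels do not say that numbered libraries came from separate cultures, p-values measure the spread between these libraries, which may be technical.

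Scavenger receptors take up lipoprotein whose protein or lipid has been oxidised or otherwise changed, and many of them are not shut down when the cell fills with cholesterol. In macrophages of the arterial wall this uptake is one route to the lipid-laden foam cell. The members differ in place and task: Msr1 and Marco are collagen-like class A receptors of the cell surface, Cd36 and Scarb1 are class B receptors for oxidised lipoprotein and for high-density lipoprotein, Olr1 is the lectin-like receptor known from endothelium, Cxcl16 is a membrane-bound chemokine that also binds oxLDL, Stab1 is a large endocytic receptor of macrophages and sinusoidal endothelium, and Lrp1 is a large endocytic receptor for remnant lipoproteins and proteinase complexes. Scarb2 and Cd68 lie mostly in the membranes of lysosomes and late endosomes.

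Each library held between 15877278 and 17336019 expected counts, with 12954 to 13276 genes detected. Of 10 macrophage markers, 10 averaged above 1 TPM (a level scaled for transcript length and depth) in every group, with Lyz2 highest at a mean of 18733 TPM and Aif1 lowest, at 0.571 to 2.66 TPM. Controls 1 and 2 stood apart by digestive enzyme transcripts of the exocrine pancreas: the summed level of 16 acinar markers was 306 and 163 TPM there, 42.4 and 20.7 TPM in controls 3 and 4, and 6.81 to 58.3 TPM in the treated libraries. Of these 16 markers, 15 averaged above 1 TPM in the controls, against 7, 10 and 7 under oxLDL, tirzepatide and both. The mitochondrially encoded share of counts was 8.32% to 11.2% among controls and 7.69% to 10.5% among treated libraries. The part of these features in the changes below was not tested, except where a value without those libraries is given. The 7 endothelial markers, of a cell type that uses Olr1, Cd36 and Stab1, summed to 2.43 to 5.34 TPM. Kdr and Emcn were at 0 in every oxLDL, tirzepatide and combination library. Vwf, Pecam1 and Cdh5 were above 0 in every library, at 1.104 to 2.235, 0.697 to 2.118 and 0.089 to 1.931 TPM. Hepatocyte markers summed to at most 0.426 TPM and T and B cell markers to at most 0.35 TPM.

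Among the receptors, this line held mainly the lysosomal Cd68, the surface receptors Msr1, Lrp1 and Scarb1, and the lysosomal Scarb2, whereas Cd36, Olr1, Marco and Cxcl16 stayed near the limit of counting. Mean levels over the 16 libraries were 627 TPM for Cd68, 97.7 for Msr1, 74.6 for Lrp1, 56.8 for Scarb1, 47.5 for Scarb2 and 2.23 for Stab1. Ranked among all 21965 genes by mean TPM, Cd68 stood at place 180, Msr1 at 1420, Lrp1 at 1946, Scarb1 at 2646, Scarb2 at 3181 and Stab1 at 10098. Cd68 was above the other members in 16 of 16 libraries and took between 66.1% and 71.8% of their summed TPM. The order of its followers was partly shared. Msr1 was above Lrp1 in 13 of 16 libraries, which were 1 of 4 controls and 12 of 12 treated libraries. Lrp1 was above Scarb1 in 16 of 16 libraries, although their ranges over all libraries overlapped. Scarb1 was above Scarb2 in 14 of 16, the exceptions being 1 oxLDL and 1 combination library. Stab1 was the lowest of the measured members in every library, with 96 to 214 expected counts. These levels are those of RNA, and surface protein was not measured.

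**Figure D1:**
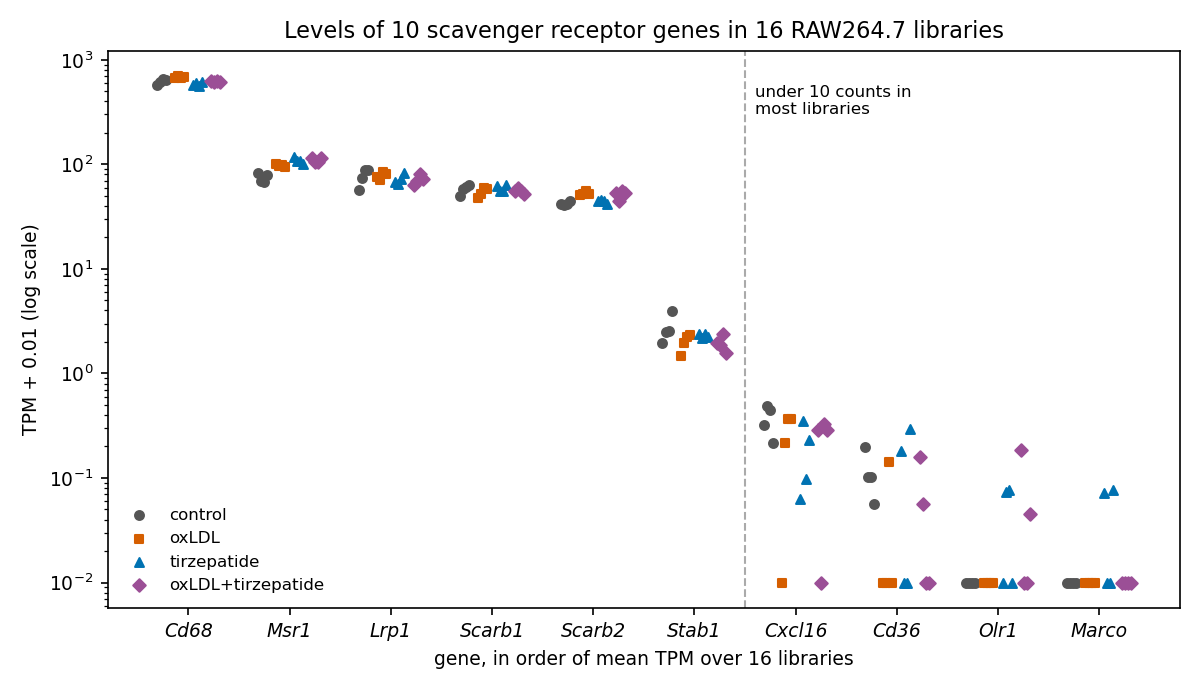
TPM + 0.01 of the 10 members on a logarithmic vertical axis, 1 point per library with colour and shape by group, so that libraries at 0 TPM lie at 0.01. Cd68 sits near 627 TPM, Msr1, Lrp1, Scarb1 and Scarb2 between 40.5 and 117 TPM, Stab1 near 2.23 TPM, and the other 4 members under 0.5 TPM.

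A member with fewer than 10 expected counts in more than 8 of the 16 libraries was taken as not measured. Cxcl16, the membrane-bound chemokine that also binds oxLDL, had 85.65 counts over all libraries, was under 10 in 14 of 16 and reached at most 10.8. By group its counts summed to 30.8 in the controls, 20 under oxLDL, 15.85 under tirzepatide and 19 under both. Cd36 had 21 counts in all, at most 4 in a library, with 9 counts in the controls, 3 under oxLDL, 5 under tirzepatide and 4 under both. Its transcript was rare in every group, also under oxLDL. Olr1 had 10 counts in all: 0 in the controls, 0 under oxLDL, 4 under tirzepatide and 6 under both. A count of 0 over the 4 controls allows a level of up to 0.0456 CPM (expected counts scaled by the library totals), and over the 4 oxLDL libraries of up to 0.0452, from counting error alone. Marco had 2 counts, in 2 tirzepatide libraries. These 4 genes did not enter the tests, and no comparison between groups was made for them.

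Promoter sequences are shown to set the start regions of expressed members beside those of members near 0. RefSeq promoters on GRCm38.p6 were found for 7 of the 10 members, and none for Msr1, Scarb1 or Cxcl16. Those of Scarb2, which rose with oxLDL, and of Cd68, the most abundant, are set beside Olr1 and Cd36, which were not measured. Each run gives the 250 bases before the annotated start, 5′ to 3′ on the strand of the gene, and capitals mark matches to the motifs named below.
Scarb2: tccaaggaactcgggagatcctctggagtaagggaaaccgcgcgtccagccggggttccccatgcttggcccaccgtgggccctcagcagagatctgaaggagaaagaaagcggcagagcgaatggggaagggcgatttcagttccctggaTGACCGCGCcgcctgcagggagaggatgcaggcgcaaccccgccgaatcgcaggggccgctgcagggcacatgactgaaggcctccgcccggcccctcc
Cd68: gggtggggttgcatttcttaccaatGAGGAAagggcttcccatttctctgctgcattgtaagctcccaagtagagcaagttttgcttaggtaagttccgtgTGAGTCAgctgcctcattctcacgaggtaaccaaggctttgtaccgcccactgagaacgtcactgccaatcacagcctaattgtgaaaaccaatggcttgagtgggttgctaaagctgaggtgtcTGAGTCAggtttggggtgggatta
Olr1: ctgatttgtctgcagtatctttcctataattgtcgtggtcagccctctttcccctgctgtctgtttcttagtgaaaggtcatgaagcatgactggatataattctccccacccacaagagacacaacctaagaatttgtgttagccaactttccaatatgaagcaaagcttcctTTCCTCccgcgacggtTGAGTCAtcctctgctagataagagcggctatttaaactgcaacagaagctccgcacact
Cd36: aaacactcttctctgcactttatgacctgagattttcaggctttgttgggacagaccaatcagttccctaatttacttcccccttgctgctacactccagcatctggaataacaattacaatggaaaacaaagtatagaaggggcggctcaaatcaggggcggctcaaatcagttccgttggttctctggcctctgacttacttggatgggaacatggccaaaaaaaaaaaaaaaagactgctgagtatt
These windows lie at chr5:92505658-92505907, chr11:69666171-69666420, chr6:129507166-129507415 and chr5:17835897-17836146, all on the minus strand. The motifs searched on both strands were the core bound by the myeloid factor PU.1 (GAGGAA), the AP-1 site of Fos and Jun (TGANTCA), the core of the antioxidant response element (TGACNNNGC) and the palindromic E-box (CACGTG), of which the AP-1 and antioxidant motifs share their first letters. Scarb2 held 19 CpG dinucleotides and 1 antioxidant core, 99 to 91 bases before the start. Cd68 held 4 CpG, 1 PU.1 core 225 to 220 bases before the start and 2 AP-1 matches, at 149 to 143 and at 24 to 18 bases. Olr1 held 6 CpG, 1 PU.1 core at 76 to 71 bases on the opposite strand, and 1 AP-1 match at 60 to 54 bases. Cd36 held 3 CpG and none of the 4 motifs. Over 32851 promoters of the same length, 23.3% held the PU.1 core, 6.75% the AP-1 motif, 10.2% the antioxidant core and 6.02% the E-box, and the median CpG count was 6. The AP-1 letters were thus in a gene at 627 TPM and in one near 0. Among the promoters not printed, Lrp1, which was not called under oxLDL, held the antioxidant core 160 to 152 bases before the start, on the opposite strand. The PU.1 core was also in Stab1 and in Marco, which was not measured. A match describes letters only.

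The effect of oxLDL was asked by setting the 4 oxLDL libraries against the 4 controls. Msr1 and Scarb2 rose, by 1.26-fold and 1.24-fold, and the other 4 measured members did not pass the test. Changes were tested with edgeR's quasi-likelihood test across 11319 genes, with Benjamini-Hochberg adjustment, and an adjusted p under 0.05 was called. The call reached 2 of 6 members, against 4.54% of all tested genes, and both were higher, against 2.49% of all. In bulk RNA, a change in the fraction of cells that express a gene and a change in the RNA per cell cannot be told apart.

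Msr1, which takes up acetylated and oxidised LDL, was at 82.6, 69.6, 68.0 and 79.8 TPM in controls 1 to 4 and at 100.4, 97.3, 99.0 and 94.2 TPM in oxLDL libraries 1 to 4. Every oxLDL library was above every control, as held in this direction for 4.86% of the tested genes. The means were 75.0 ± 7.29 and 97.7 ± 2.64 TPM (SD, n = 4), a log2 change of 0.34 (SE 0.07, 95% confidence interval 0.19 to 0.48, edgeR adjusted p = 0.0044). Without controls 1 and 2 the log2 change of Msr1 was 0.40 (edgeR adjusted p = 0.00313).

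Scarb2, also called LIMP-2, carries glucocerebrosidase to the lysosome. Its levels were 41.6, 40.5, 42.0 and 44.6 TPM in the controls and 50.8, 52.1, 55.5 and 51.5 TPM under oxLDL. Here too the groups did not overlap, and the libraries of a group lay close together. The means of 42.2 ± 1.73 and 52.5 ± 2.06 TPM (SD, n = 4) gave a log2 change of 0.31 (SE 0.05, interval 0.20 to 0.42, edgeR adjusted p = 0.000641).

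Cd68, the lysosomal glycoprotein that is widely used to mark macrophages, was at 572, 611, 654 and 639 TPM in the controls and at 669, 698, 673 and 686 TPM under oxLDL. The groups did not overlap, but the difference was small. At means of 619 ± 36.0 and 682 ± 13.4 TPM (SD, n = 4), the log2 difference of 0.13 (SE 0.04, interval 0.05 to 0.22) missed the threshold in edgeR (adjusted p = 0.0553) and passed it in DESeq2 (adjusted p = 0.0158). In edgeR it passed without control 3 (adjusted p = 0.0448), oxLDL library 3 (0.0467) or combination library 1 (0.0488) and when the mitochondrial share was a covariate (0.0272). In 21 of 27 alternative settings Cd68 was not called, for instance without oxLDL library 2 (edgeR adjusted p = 0.205).

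Lrp1, Scarb1 and Stab1 overlapped between the controls and oxLDL. Lrp1 was at 57.3, 73.8, 89.0 and 88.2 TPM in the controls and at 75.3, 70.2, 85.2 and 81.6 TPM under oxLDL. Control 1 was the lowest of all 16 libraries for this gene. Its log2 difference was -0.01 (interval -0.18 to 0.16, edgeR adjusted p = 0.967). Scarb1, the receptor for high-density lipoprotein, was at 50.0, 57.9, 60.2 and 64.0 TPM in the controls and at 47.4, 52.4, 58.7 and 57.8 TPM under oxLDL, a log2 difference of -0.11 (interval -0.24 to 0.03, edgeR adjusted p = 0.411). Stab1 was at 1.94, 2.47, 2.52 and 3.91 TPM in the controls and at 1.47, 1.94, 2.22 and 2.32 TPM under oxLDL. Control 4 was its highest library. The log2 difference of Stab1 was -0.37 (interval -0.66 to -0.07) and was not called (edgeR adjusted p = 0.155); without control 4 it was -0.24.

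**Figure D2:**
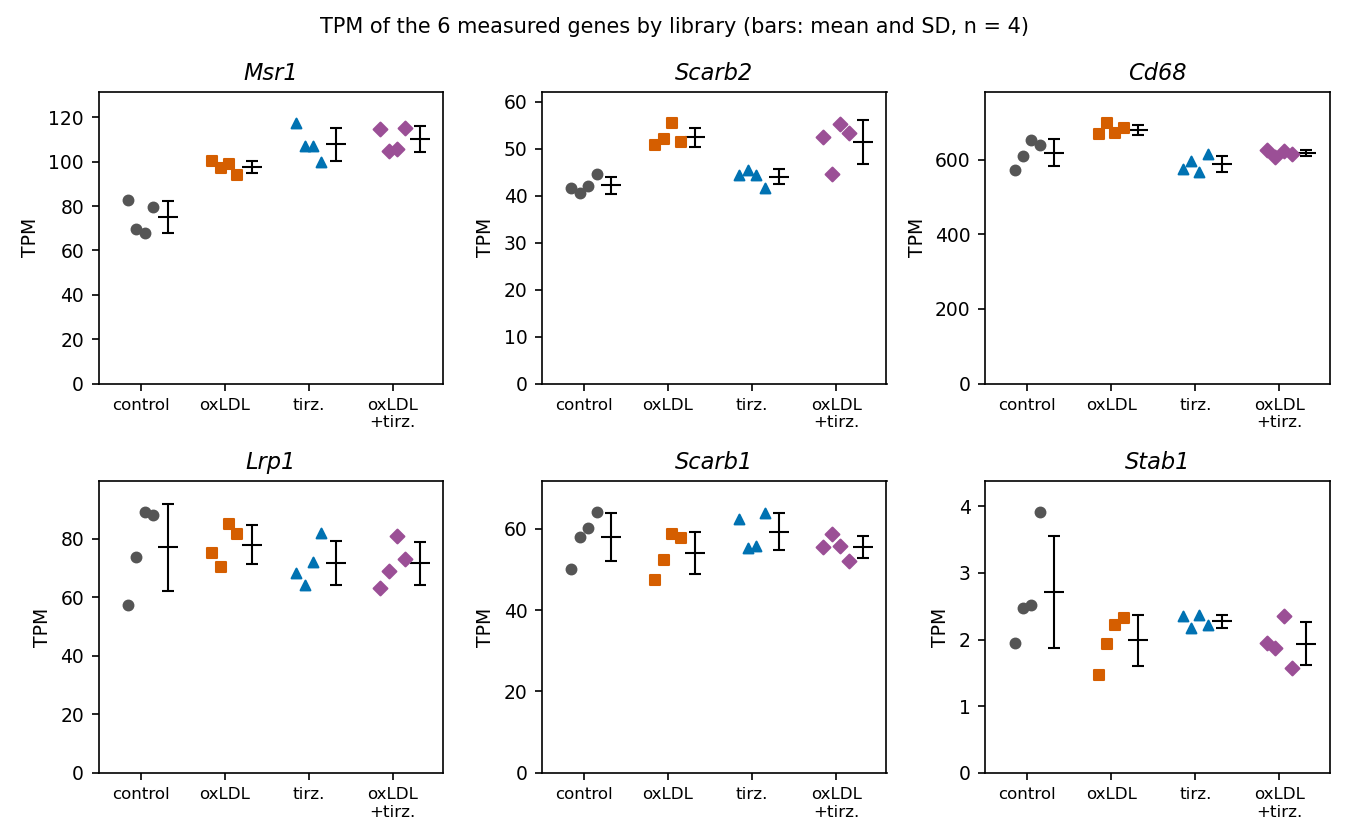
TPM of the 6 measured members in each library, 1 panel per gene with its own linear axis, grouped by treatment, with the group mean and SD drawn beside the points. Msr1 lies between 68.0 and 82.6 TPM in the controls and between 94.2 and 117 TPM in every treated library, while Scarb2 is high in the oxLDL group and in 3 of 4 combination libraries.

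Tirzepatide alone was set against the same 4 controls. Msr1 rose by 1.36-fold and no other measured member was called: 1 of 6, against 4.08% of all tested genes, and in the higher direction against 2.34%. That background rested on 462 genes and moved with single libraries, to 119 genes without control 2; Msr1 was called in every such fit. Msr1 was at 117, 107, 107 and 99.8 TPM in the 4 tirzepatide libraries. Each was above every control, as held in this direction for 7.27% of the tested genes. At a mean of 108 ± 7.25 TPM (SD, n = 4), the log2 change was 0.44 (SE 0.07, interval 0.30 to 0.59, edgeR adjusted p = 0.000755), and without controls 1 and 2 it was 0.50 (edgeR adjusted p = 0.000819).

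Scarb2 stayed within the range of the controls or just above it under tirzepatide, at 44.5, 45.6, 44.5 and 41.7 TPM. Its log2 difference from control was 0.04 (interval -0.07 to 0.14, edgeR adjusted p = 0.783). Cd68 was at 577, 596, 567 and 617 TPM, a log2 difference of -0.10 (interval -0.18 to -0.02, edgeR adjusted p = 0.169). Lrp1 was at 68.3, 64.4, 72.1 and 81.9 TPM. These values lay inside the wide range of the controls, and the log2 difference was -0.12 (interval -0.29 to 0.05, edgeR adjusted p = 0.477). With controls 1 and 2 left out, the log2 change of Lrp1 was -0.28 and was called (edgeR adjusted p = 0.0445). Lrp1 was not called in 25 of 27 alternative settings, and ranged from -0.22 to -0.06 with 1 library left out. Scarb1 was at 62.4, 55.2, 55.8 and 63.9 TPM, with a log2 difference of 0.01 (interval -0.12 to 0.14, edgeR adjusted p = 0.967). Stab1 was at 2.35, 2.17, 2.37 and 2.21 TPM, the narrowest group of this gene, with a log2 difference of -0.35 (interval -0.64 to -0.05, edgeR adjusted p = 0.174), or -0.22 without control 4.

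The combination was first set against control, which is the third comparison that uses the same 4 control libraries. Msr1 rose by 1.42-fold and Scarb2 by 1.21-fold, and Stab1 fell to 0.688 of its control level. Thus 3 of 6 members were called, against 8.94% of all tested genes; 2 were higher, against 4.69%, and 1 lower, against 4.25%. Over all genes the 1012 calls became 475 without control 2 and 410 with only these 2 groups in the fit.

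Msr1 was at 115, 105, 106 and 115 TPM in combination libraries 1 to 4. All 4 were above every control, as held in this direction for 5.71% of the tested genes. Against the controls the mean of 110.2 ± 5.71 TPM (SD, n = 4) gave a log2 change of 0.51 (SE 0.07, interval 0.37 to 0.65, edgeR adjusted p = 5.2e-05). Scarb2 was at 52.6, 44.6, 55.3 and 53.4 TPM. Combination library 2 lay at the upper end of the controls while the other 3 lay in the oxLDL range. The log2 change of Scarb2 from control was 0.28 (SE 0.05, interval 0.17 to 0.38, edgeR adjusted p = 0.00183), and without combination library 2 it was 0.33 (edgeR adjusted p = 3.28e-05).

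Stab1 was at 1.95, 1.87, 2.35 and 1.57 TPM under both agents, against 2.71 ± 0.840 TPM in the controls (SD, n = 4). The ranges overlapped. The log2 change of -0.54 (SE 0.15, interval -0.84 to -0.24, edgeR adjusted p = 0.0217) was computed from at most 214 counts a library. It lost its call without control 4 (log2 change -0.42, edgeR adjusted p = 0.0886), without combination library 1 (adjusted p = 0.0731) or 4 (adjusted p = 0.0701), with only the 2 groups in the fit (adjusted p = 0.0523) and in limma on TPM (adjusted p = 0.214). The expected counts per TPM of Stab1, a measure of the transcript length that RSEM assigned, ranged 1.29-fold between libraries, more than for 87.5% of 9624 genes, against 1.01-fold for Cd68; its part in the result was not tested. In the GENCODE M21 annotation Stab1 overlaps Nt5dc2 on the opposite strand, over 112 bases, and the strand setting of the counting is not given in the sources used here, so that reads of this overlap cannot be told apart. Overlaps are not particular to Stab1: Scarb1 overlaps Gm42633 on the same strand, over 2764 bases. On the opposite strand Lrp1 overlaps Gm16217 over 1323 bases, Cxcl16 overlaps Zmynd15 over 552 and Scarb2 overlaps Mir6415 over 100.

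Against control the other 3 members were not called in the combination. Cd68 was at 628, 608, 624 and 616 TPM, inside the control range, with a log2 difference of -0.01 (interval -0.09 to 0.07, edgeR adjusted p = 0.919). Scarb1 was at 55.6, 58.7, 55.8 and 52.2 TPM, a log2 difference of -0.07 (interval -0.20 to 0.06, edgeR adjusted p = 0.538). Lrp1 was at 63.3, 69.0, 81.0 and 73.1 TPM, with a log2 difference of -0.10 (interval -0.27 to 0.07, edgeR adjusted p = 0.508). Without control 1, the lowest library of Lrp1, the log2 change was -0.20 and was called (edgeR adjusted p = 0.0484), and without controls 1 and 2 it was -0.26 (edgeR adjusted p = 0.0251). In 25 of 27 alternative settings Lrp1 was not called, and with 1 library left out it ranged from -0.20 to -0.04.

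Whether tirzepatide changed the receptors in the presence of oxLDL was asked by setting the combination against oxLDL alone. No member was called by edgeR, by DESeq2 or by limma: 0 of 6 in each, against 0.0353% of all tested genes called by edgeR. At the looser threshold of an unadjusted p under 0.05 in edgeR there were 2, Msr1 and Cd68, at places 550 and 59 of 11319 by p. The share of all tested genes at that threshold is not given here. For both members the groups did not overlap, as held for 4.75% of all tested genes, 3.08% higher and 1.67% lower. Msr1 was higher under both agents, by a log2 difference of 0.17 (SE 0.07, interval 0.03 to 0.31, edgeR adjusted p = 0.410). Cd68 was lower under both agents than in any oxLDL library. Its log2 difference was -0.14 (SE 0.04, interval -0.23 to -0.06, edgeR adjusted p = 0.272). Scarb2 differed by -0.03 on the log2 scale (interval -0.14 to 0.08, edgeR adjusted p = 0.862), and by 0.03 without combination library 2. In this comparison 4 genes of 11319 were called, and the intervals give the sizes of change that these data allow for the members.

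The remaining members were spread across both ranges. For Lrp1 the log2 difference from oxLDL was -0.09 (interval -0.26 to 0.08, edgeR adjusted p = 0.740). For Scarb1 it was 0.03 (interval -0.10 to 0.17, edgeR adjusted p = 0.885). For Stab1 it was -0.17 (interval -0.48 to 0.14, edgeR adjusted p = 0.720).

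Against tirzepatide alone, the combination asks what oxLDL added in cells that had the drug. Scarb2 rose by 1.18-fold and was the 1 member of 6 called, against 1.54% of all tested genes, and 0.76% in the higher direction. The log2 change was 0.24 (SE 0.05, interval 0.13 to 0.35, edgeR adjusted p = 0.0156). Combination library 2, at 44.6 TPM, lay within the tirzepatide range of 41.7 to 45.6 TPM. Without it the log2 change was 0.30 (edgeR adjusted p = 0.00017). The call was lost, at log2 changes of 0.21 to 0.23, without tirzepatide library 4 (adjusted p = 0.0765) or combination library 1 (0.0744), 3 (0.072) or 4 (0.0749). Msr1 differed by 0.07 (interval -0.07 to 0.21, edgeR adjusted p = 0.701) and Cd68 by 0.09 (interval 0.01 to 0.17, edgeR adjusted p = 0.317).

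The interaction asked whether the log2 change with both agents differed from what the 2 single changes add up to. No member was called by edgeR, DESeq2 or limma (0 of 6 in each), against 0.0707% of all tested genes by edgeR. At an unadjusted p under 0.05 in edgeR there was 1 member, Msr1, at place 373 of 11319 by p. The share of all tested genes at that threshold is not given here. The log2 changes of Msr1 from control were 0.34 with oxLDL, 0.44 with tirzepatide and 0.51 with both. Its interaction was -0.27 (SE 0.10, interval -0.47 to -0.07, unadjusted p = 0.0106, edgeR adjusted p = 0.321). For Scarb2 the changes were 0.31, 0.04 and 0.28 and the interaction -0.07 (interval -0.22 to 0.09, edgeR adjusted p = 0.787). Against control, Msr1 was called in each treated group and Scarb2 in both groups that had oxLDL; the difference between these 2 patterns was not tested.

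**Figure D3:**
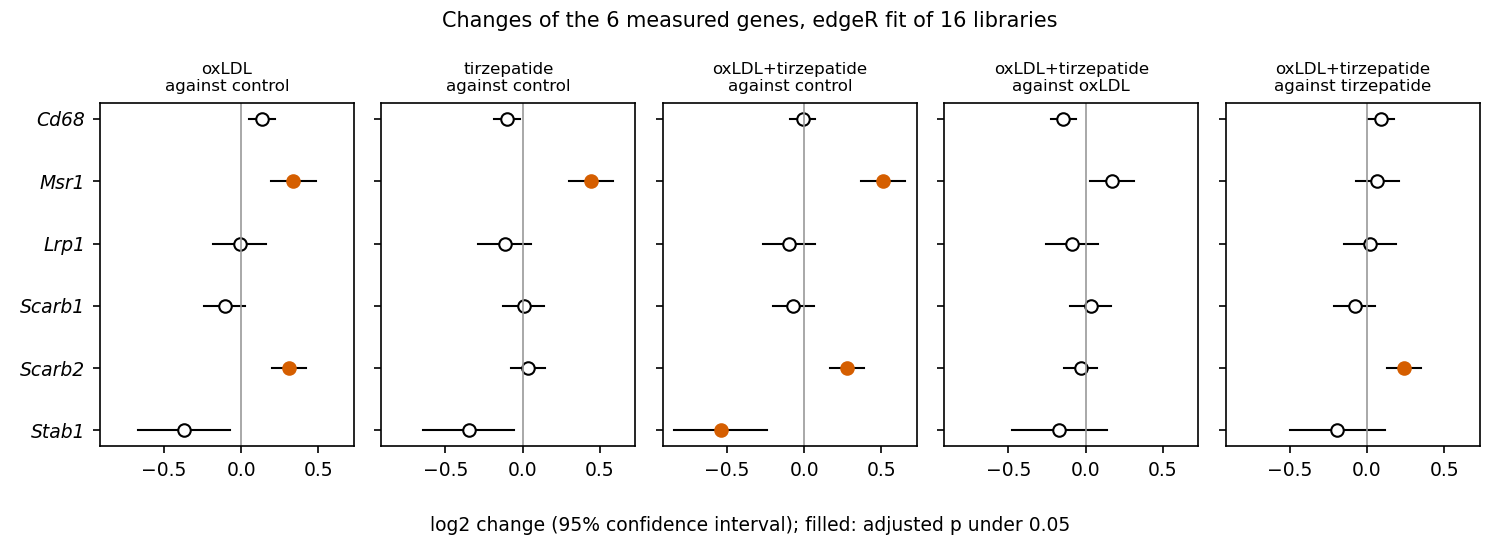
Log2 change with its 95% confidence interval for the 6 measured members in 5 comparisons, filled where the edgeR adjusted p was under 0.05. Filled points are Msr1 in the 3 comparisons with control, at 0.34, 0.44 and 0.51, Scarb2 in the 3 comparisons of an oxLDL group with a group that lacked it, at 0.31, 0.28 and 0.24, and Stab1 in the combination against control, at -0.54.

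The spread of Lrp1 within the groups ran against the mitochondrial share of counts. In each of the 4 groups, the 2 libraries with the higher mitochondrial share had lower Lrp1 TPM than the other 2. These were libraries 1 and 2 of every group, so that the mitochondrial share and whatever the library numbers stand for cannot be told apart in this split. Of the 6 measured members this held for Lrp1 alone, and of all 11319 tested genes for 2.31%. In the controls the shares were 11.2%, 9.53%, 8.39% and 8.32% beside 57.3, 73.8, 89.0 and 88.2 TPM of Lrp1. With this share as a covariate, the log2 change of Lrp1 under tirzepatide was -0.23 (edgeR adjusted p = 0.00457) and that of Stab1 was -0.48 under oxLDL (adjusted p = 0.026) and -0.47 under tirzepatide (adjusted p = 0.03). The part of the mitochondrial share in these changes was not tested beyond that fit.

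**Figure D4:**
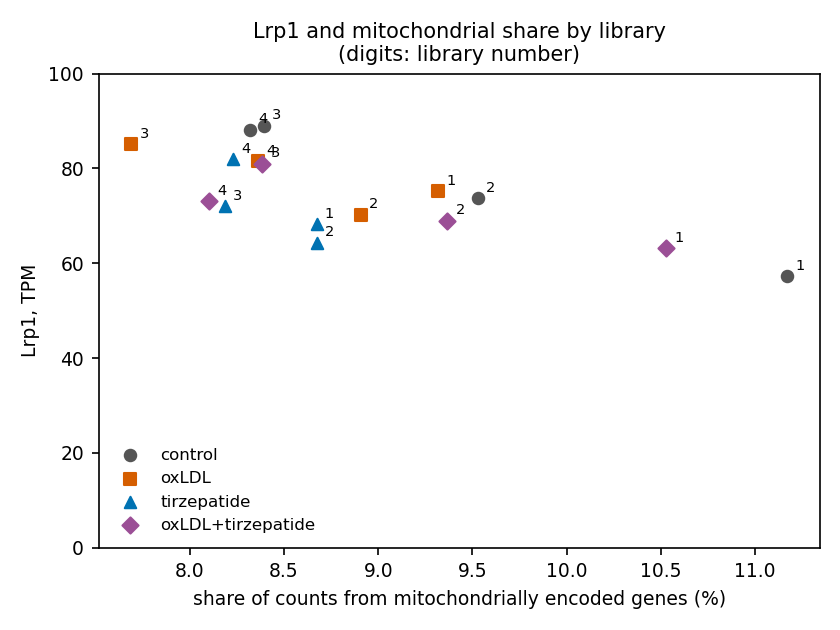
Lrp1 level in TPM against the mitochondrially encoded share of counts in percent, 1 point per library, coloured by group. In each group the 2 points with the higher share, libraries 1 and 2, lie below the other 2, from 57.3 TPM at 11.2% in control 1 to 89.0 TPM at 8.39% in control 3.

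Genes around the receptors were read from 6 lists, of which 61 genes were tested. In oxLDL against control 13 of the 61 were called by edgeR, and in tirzepatide against control 3 of 61, beside 4.54% and 4.08% of all tested genes. The combination against oxLDL gave 0 of 61 by edgeR, beside 0.0353% of all tested genes, while DESeq2 gave 0 and limma 1. At an unadjusted p under 0.05 in edgeR there were 14 of the 61. The share of all tested genes at that threshold is not given here, but 550 of 11319 had an edgeR unadjusted p of 0.0201 or less. The lists were read by counts and medians, with no test of a list. The median log2 change of all tested genes was -0.002 with oxLDL and 0 with tirzepatide.

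Of 15 other scavenger receptors in the table, 6 were tested, with 1 higher, 0 lower and a median log2 change of -0.205 under oxLDL. The called gene was Colec12, a collagen-like receptor for oxidised LDL, which went from 61.6 ± 2.60 to 69.6 ± 1.61 TPM (SD, n = 4), a log2 change of 0.17 (SE 0.04, edgeR adjusted p = 0.0277). By these means Colec12 stood above Scarb2 and Scarb1 (58.1 TPM in the controls and 54.1 under oxLDL). It stood below Lrp1 (77.1 and 78.1 TPM). Cd163, Scara5, Megf10 and Clec7a were at 0 TPM in the mean of all libraries, and Mrc1, the mannose receptor, averaged 0.00425 TPM.

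Among the relatives of Lrp1 and their sorting partners, 13 of 15 were tested, with 0 higher and 2 lower under oxLDL, at a median of 0.042; of all tested genes 2.05% were called lower. Mylip, a ubiquitin ligase and a target of liver X receptors, fell from 35.8 ± 0.532 to 25.7 ± 1.46 TPM (SD, n = 4), a log2 change of -0.49 (SE 0.09, edgeR adjusted p = 0.000841). Lrp4 fell by 0.48 on the log2 scale (SE 0.12, edgeR adjusted p = 0.0175) at about 2.49 TPM. Under tirzepatide, where 1.74% of all tested genes were called lower, the call reached Lrp8, a receptor for apolipoprotein E, from 12.6 ± 1.53 to 10.3 ± 1.45 TPM (log2 change -0.38, SE 0.07, edgeR adjusted p = 0.00525).

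Of 15 co-receptors and signalling partners, 13 were tested, with 2 higher and 0 lower under oxLDL and a median of 0.006. Cd14, the co-receptor of Toll-like receptor 4, rose from 139.9 ± 11.6 to 231.9 ± 4.63 TPM (SD, n = 4), a log2 change of 0.73 (SE 0.11, edgeR adjusted p = 0.000138). Cd9, a tetraspanin that is known to sit beside Cd36, rose from 197 ± 7.48 to 224 ± 10.5 TPM (log2 change 0.17, edgeR adjusted p = 0.0227), in cells where Cd36 itself had 21 counts in all. Under tirzepatide Cd14 was at 186.9 ± 4.59 TPM (log2 change 0.39, edgeR adjusted p = 0.0394), a call that was lost in 18 of 27 alternative settings.

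The shedding enzymes and partners of Cxcl16 and Lrp1 had 6 of 7 tested, with 1 higher and 1 lower under oxLDL and a median of -0.075. Adam17, which sheds surface proteins, rose from 97.6 ± 4.32 to 108.6 ± 2.49 TPM (SD, n = 4), a log2 change of 0.15 (edgeR adjusted p = 0.0306). Adam10, the sheddase of Cxcl16, fell from 394 ± 27.0 to 359 ± 13.6 TPM (log2 change -0.16, edgeR adjusted p = 0.0277). The enzyme was thus abundant beside a substrate that was not measured, and Cxcr6, the receptor of Cxcl16, averaged 0.263 TPM.

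Of the genes that process lipoprotein once it is taken up, 11 of 11 were tested, with 2 higher and 2 lower under oxLDL and a median of 0.112. The 2 that rose handle cholesteryl esters: Nceh1, a hydrolase, went from 19.4 ± 2.04 to 25.1 ± 2.61 TPM (SD, n = 4), a log2 change of 0.36 (SE 0.07, edgeR adjusted p = 0.00368), and Soat1, which forms the esters, from 139 ± 11.7 to 175.9 ± 13.9 TPM (log2 change 0.21, edgeR adjusted p = 0.00658; named after its values were seen). The TPM means of Soat1 lay further apart than its log2 change, which comes from the counts. TPM also takes in the transcript length that RSEM assigned, and the part of that length was not tested. The cholesterol exporters fell: Abca1 from 158 ± 8.41 to 111 ± 5.12 TPM (log2 change -0.52, edgeR adjusted p = 1.3e-05) and Abcg1 from 222 ± 12.5 to 158 ± 6.13 TPM (log2 change -0.51, edgeR adjusted p = 0.000337). Under tirzepatide 1 of 11 was called, Hexa, a lysosomal hexosaminidase subunit, at a log2 change of -0.19 (edgeR adjusted p = 0.0173).

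Among 15 transcription factors with textbook links to these receptors, 12 were tested, with 2 higher and 0 lower under oxLDL and a median of 0.022. Fos, a subunit of AP-1, rose from 7.95 ± 0.760 to 27.5 ± 2.94 TPM (SD, n = 4), a log2 change of 1.78 (SE 0.24, edgeR adjusted p = 4.15e-05). Ets2 rose by 0.17 on the log2 scale (SE 0.04, edgeR adjusted p = 0.0132). Spi1, which encodes PU.1, averaged 218 TPM, and Nfe2l2, the factor of the antioxidant response element, 83.4 TPM. Pparg, the nuclear receptor known to drive Cd36 in macrophages, averaged 0.0126 TPM and was not tested. Under tirzepatide 0 of 12 were called by edgeR, while limma called 0 and DESeq2 1, Mitf. At an unadjusted p under 0.05 in edgeR there were 3 of the 12, and the share of all tested genes at that threshold is not given here.

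Several of these list calls were of small changes, and with 1 library left out they missed the threshold while the direction stayed. The log2 change then ranged from 0.14 to 0.18 for Colec12, from 0.15 to 0.20 for Cd9, from -0.18 to -0.15 for Adam10, from 0.13 to 0.17 for Adam17, from 0.15 to 0.20 for Ets2, from -0.56 to -0.36 for Lrp4 and from -0.24 to -0.17 for Hexa. In these fits the call under oxLDL was lost for Colec12 without control 1, 2 or 3 or oxLDL library 1 or 2. For Lrp4 it was lost without control 3 or 4 or oxLDL library 1 or 4, and for Cd9 without control 3 or 4 or oxLDL library 1, 2 or 3. Adam10 lost it without control 4 or oxLDL library 1, 2 or 4, Adam17 without control 2 or 3, oxLDL library 1 or 2 or tirzepatide library 2, and Ets2 without control 2 or oxLDL library 4. Hexa lost its call under tirzepatide without control 2 or 3 or tirzepatide library 1 or 2. The adjusted p in these fits ran up to 0.151, for Adam17 without control 2. Fos, Abca1, Abcg1, Mylip and Cd14 kept their oxLDL call in each of 27 alternative settings, and Nceh1 lost its call only in limma on log2(TPM + 1), as did Lrp8 under tirzepatide.

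**Figure D5:**
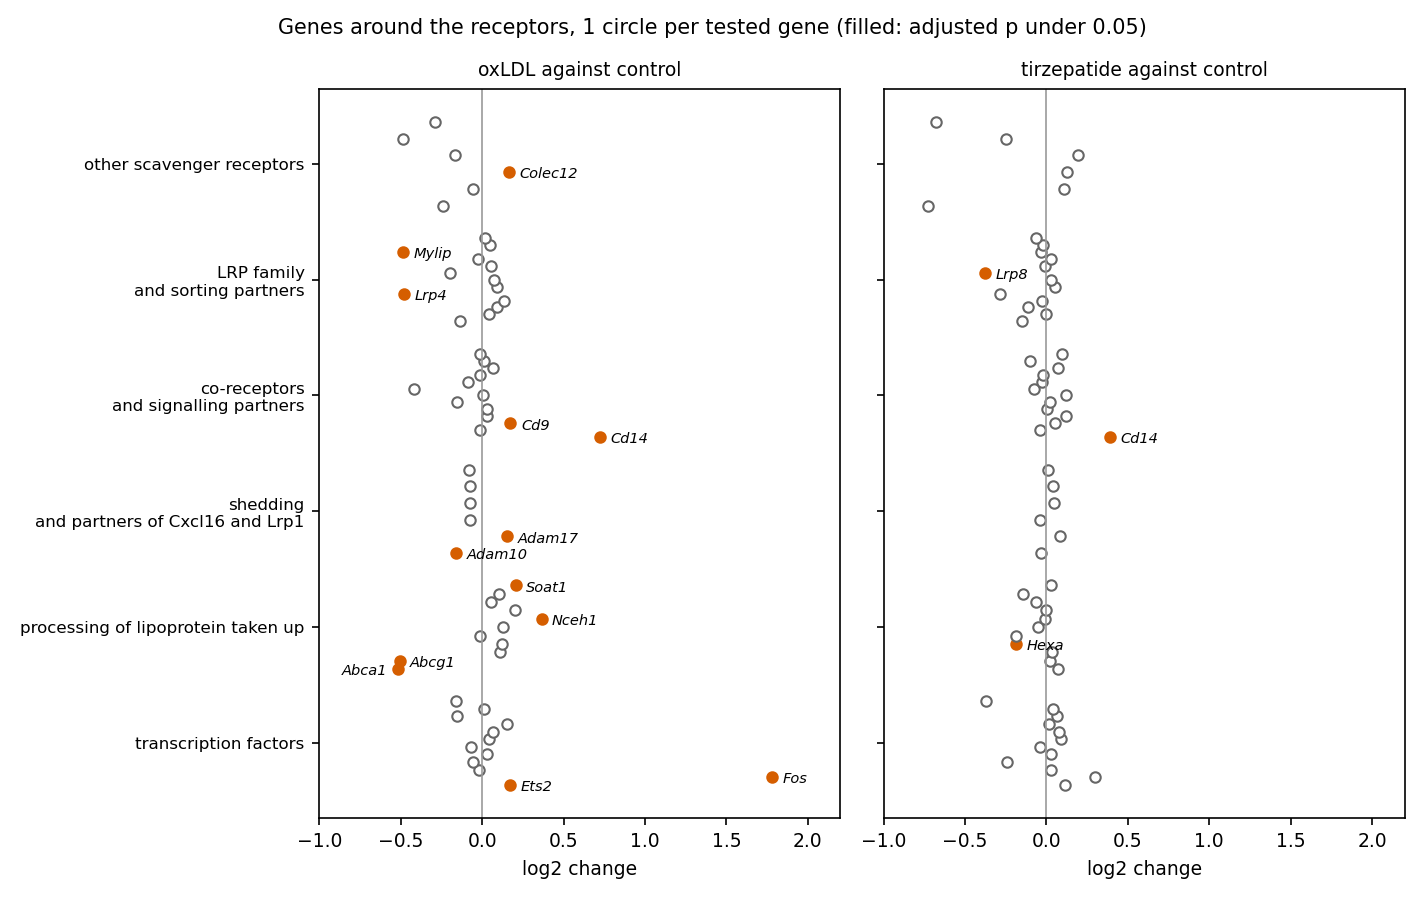
Log2 change of each tested gene of the 6 lists, 1 circle per gene, with oxLDL against control on the left and tirzepatide against control on the right, filled and named where the edgeR adjusted p was under 0.05. There are 13 filled circles for oxLDL, from Abca1 at -0.52 to Fos at 1.78, and 3 for tirzepatide, Lrp8, Cd14 and Hexa.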

How the data were processed

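RNA of RAW264.7 cells was sequenced in 16 libraries, 4 in each of 4 groups. The deposited table holds, for 21965 genes, the expected counts that the authors estimated with RSEM and TPM, the level per transcript length and depth that the authors deposited beside them, per the file headers. Per the submitters' processing notes the tools were RSEM (no version), StringTie 1.3.1, Bowtie2 2.2.8 and fastp 0.18.0, and the builds GRCm39 and mm39; the annotation release and the strand setting are not given in the sources used here. RSEM divides reads that fit several genes among them, and the transcript lengths it assigns enter TPM but not the tests.

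For the tests, expected counts were first rounded; edgeR 4.0.16 (R 4.3.3) then used filterByExpr at a minimum count of 10 (11319 genes left), TMM, and quasi-likelihood tests in 1 fit of 16 libraries with a mean per group. The estimated coefficient of variation was 0.0633. A gene was called at an adjusted p under 0.05, with no fold threshold. Levels and their SD are in TPM, and log2 changes come from the counts. Floors of 3 counts cover counting error only. The scripts were tested on simulated data.

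Groups came from the sample labels. The labels do not say that replicate numbers pair the libraries, and the main fit did not pair them. Of 24 pairs with the same number, 5 had a correlation of deviations over 0.1, against 7 of 72 pairs with different numbers. The highest correlations were 0.189 and 0.145. Results with the number as a block are given below. Named were all 10 members, and up to 3 called genes of each list with the smallest p in oxLDL or tirzepatide against control and in the combination against oxLDL. A gene of the lists is not reported here and was left out of their counts. The members, lists and marker lists were chosen with earlier results of these data known, and no result here is independent support for a pattern seen then. Alternatives tried were a block for the replicate number, a fit of just the compared groups, DESeq2 1.42.0 and its size factors, limma 3.58.1 after quantile normalization, low counts left unfiltered or filtered at 5 TPM in 4 libraries, the omission of each library, of controls 1 and 2 or of the libraries numbered 1, and the mitochondrial share as a covariate. Limma on log2(TPM + 1), was chosen after seeing the data. Promoters of RefSeq on GRCm38.p6 were matched by symbol and searched with Python 3.11.15; their build differs from that of the counts, and they serve for sequence only.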

Additional observations from a re-analysis of the deposited data

How the results depend on the processing

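The log2 changes of Msr1 in the 3 comparisons with control, and those of Scarb2 in oxLDL and in the combination against control, stayed on the same side of the threshold in all 27 alternatives run. Over them Msr1 ranged from 0.29 to 0.41 with oxLDL (largest adjusted p 0.0301), from 0.39 to 0.52 with tirzepatide and from 0.46 to 0.58 with both; Scarb2 ranged from 0.29 to 0.32 with oxLDL and from 0.25 to 0.33 with both. Of 1364 values over 51 gene results, 1241 were unchanged in direction and call, 79 lost a call, 12 gained one and 32 changed sign.

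With the replicate number as a block, the calls among the members were 3, 1, 3, 0, 1 and 0 in oxLDL, tirzepatide and both against control, the combination against oxLDL and against tirzepatide, and the interaction; the added call was Cd68 with oxLDL (adjusted p = 0.0365), and the block changed no other member's call. Over all genes the block moved the calls from 462 to 750 with tirzepatide, from 4 to 17 in the combination against oxLDL, from 174 to 378 against tirzepatide and from 8 to 29 in the interaction; 6 of 16 libraries correlated best with their own number. Leaving out 1 library moved the calls over all genes to between 307 and 594 with oxLDL, 119 and 542 with tirzepatide, 475 and 1450 with both, 2 and 8 in the combination against oxLDL, 58 and 444 against tirzepatide, and 1 and 16 in the interaction. The moves past 1.5 times were downward without control 2 or oxLDL library 1 for oxLDL, without control 2 or 3 or tirzepatide library 1, 2 or 3 for tirzepatide, and without control 2 or 3 or combination library 1 or 4 for both. Against tirzepatide they were downward without tirzepatide library 2, 3 or 4 or combination library 1, 3 or 4 and upward without combination library 2. With only the compared groups in the fit the calls were 264 with tirzepatide, 410 with both and 107 in the combination against tirzepatide. With oxLDL, tirzepatide and both against control they were 813, 857 and 1601 with the mitochondrial covariate, 307, 204 and 967 without controls 1 and 2, 412, 291 and 765 without the libraries numbered 1, and 251, 233 and 436 in limma on log2(TPM + 1).

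Members called with oxLDL were 4 with the mitochondrial covariate (Msr1, Scarb2, Cd68 and Stab1). Members called with tirzepatide were 2 without controls 1 and 2 (Msr1 and Lrp1) and 3 with the mitochondrial covariate (Msr1, Lrp1 and Stab1). The combination against tirzepatide had 0 members with only the groups compared, without the libraries numbered 1 and in limma on log2(TPM + 1), and 0 to 1 when 1 library was left out; the cause was not tested. Left-out libraries gave 2 to 3 calls with oxLDL, 1 to 1 with tirzepatide, 2 to 4 with both, and 0 in the other contrasts.

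Signs changed only for differences near 0. Scarb1 with tirzepatide was -0.0117 under quantile normalization, -0.005 with the 5 TPM filter, -0.0617 without controls 1 and 2, -0.0718 without the libraries numbered 1, -0.0236 with the mitochondrial covariate and -0.0438 to 0.0353 when 1 library was left out. Scarb1 in the combination against oxLDL was -0.0273 without the libraries numbered 1. In limma on log2(TPM + 1), Lrp1 was 0.0362 with oxLDL, -0.0013 in the combination against tirzepatide and -0.0376 in the interaction, and Cd68 was 0.0007 with both against control. With 1 library left out, Lrp1 ranged from -0.111 to 0.0466 with oxLDL, from -0.0345 to 0.0844 in the combination against tirzepatide and from -0.0274 to 0.13 in the interaction; Cd68 from -0.0324 to 0.0079 with both against control; Scarb1 from -0.019 to 0.0768 in the interaction and from -0.0155 to 0.0718 in the combination against oxLDL; and Scarb2 from -0.0583 to 0.0271 in the combination against oxLDL. The interaction was not run with only the groups compared, and Stab1 did not pass the 5 TPM filter. Depth limits Stab1 and the 4 members that were not measured.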

Other observations

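The genes whose log2 CPM ran most like a receptor over the 16 libraries were found by Pearson's r, as a description; libraries share their group and depth, and r takes in the changes between groups. For Msr1 they were Ccdc47 (r = 0.968), Rbm3 (0.961) and Ttc39b (0.952), and for Scarb2 they were Lrrk2, Sgpl1 and Stk17b, each at 0.967. For Stab1, at its low counts, the best were Jag2 (0.877), Rara (0.858) and Zc3h3 (0.851). Among the measured members, Msr1 and Stab1 ran against each other (r = -0.769), as did Scarb1 and Scarb2 (-0.579), Lrp1 and Msr1 (-0.547) and Stab1 and Scarb2 (-0.521). Stab1 ran with Scarb1 (0.619) and with Lrp1 (0.579), and Scarb2 ran with Msr1 (0.57) and with Cd68 (0.536).

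Msr1 made up a mean of 8.62% of the members' summed TPM in the controls, 10.1% with oxLDL, 12.3% with tirzepatide and 12.1% with both. In the combination, calls outside the main naming rule, named after their values were seen, included Cd5l, a secreted scavenger receptor relative, at 2.88 ± 0.736 TPM against 5.59 ± 0.639 in the controls (SD, n = 4; log2 change -0.96, edgeR adjusted p = 0.00172), Tlr4 at 27.0 ± 1.63 against 21.8 ± 1.98 TPM (log2 change 0.30, edgeR adjusted p = 0.00709) and Lipa, the lysosomal acid lipase, at 261.6 ± 10.7 against 230.8 ± 13.7 TPM (log2 change 0.17, edgeR adjusted p = 0.0109). Of 24 groups of 4 libraries examined for a library far from its fellows, 1 group for each measured member and treatment, 0 met Dixon's criterion. In the interaction 0 members were called.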
